A study of Mus musculus with 12 samples.

Results

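The cytosolic ribosomal protein genes were followed through the cortex libraries of 12 mice. Members were the rows of the deposited tables named Rpl or Rps with a number and an optional paralog suffix, the stalk genes Rplp0, Rplp1 and Rplp2, and Rpsa, leaving out names marked as pseudogenes and the Rps6k kinases. This gave 88 genes of the 48526 listed: 43 of the large subunit, 31 of the small subunit, 3 of the stalk, and 11 paralogs or copies whose names the rule also takes. In the GENCODE annotation 83 of the 88 are protein-coding, and 5 (Rpl6l, Rps12l1, Rps3a2, Rps3a3 and Rps4l) are typed as processed pseudogenes, so the label holds for the coding members and not for these 5. The members come from 4 groups of 3 mice: TAU58/2 mice of 10 months, non-transgenic controls of 10 months, TAU58/2 mice of 3 months and non-transgenic controls of 3 months, all untreated and on a C57Bl/6 background. TAU58/2 mice carry a mutant human tau linked to inherited frontotemporal dementia, expressed in neurons from a Thy1 promoter. Libraries were made from total RNA depleted of ribosomal RNA with a strand-specific kit, and values are FPKM (fragments scaled by transcript length and by the number of mapped fragments).

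The cytosolic ribosome is built from a small subunit, which reads the mRNA, and a large subunit, which joins amino acids, and most of its proteins are needed in equal amounts. In mammals their mRNAs begin with a cytidine followed by a run of pyrimidines, the 5′ terminal oligopyrimidine (TOP) sequence, through which mTOR signalling and the RNA-binding protein Larp1 set their translation together. The mRNAs are short, abundant and found in all cells, and their genes have left many processed pseudogenes in mammalian genomes.

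Start sites are shown because this sequence is the feature that the members are known to share. In the RefSeq promoter table of GRCm38.p6, 63 of the 88 members had a start, 75 starts in all, and 13 of these (17.3%) opened with a C and 4 further pyrimidines. Over all 32851 RefSeq starts the share was 2.51%. In the GENCODE transcripts 22 of 83 members (26.5%) had at least 1 coding transcript with such a start, against 5.99% of the 9128 tested genes with a coding transcript. The starts of 6 members follow, picked from the 13 members whose RefSeq start matched, with 15 bases on either side of the annotated start. Capitals mark the unbroken run of pyrimidines from the start onward, and the last base in front of the capitals is the last base upstream. A missing match says only that the annotated start does not fall on such a run.
Rps6 (chr4:86857353-86857382, minus strand): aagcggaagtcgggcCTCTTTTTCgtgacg
Rps10 (chr17:27635230-27635259, minus strand): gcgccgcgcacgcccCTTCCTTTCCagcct
Rps18 (chr17:33955651-33955680, minus strand): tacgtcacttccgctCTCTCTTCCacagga
Rpl28 (chr7:4792950-4792979, plus strand): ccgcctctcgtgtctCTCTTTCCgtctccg
Rpl35 (chr2:39005117-39005146, minus strand): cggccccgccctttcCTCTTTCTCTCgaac
Rpl38 (chr11:114668565-114668594, plus strand): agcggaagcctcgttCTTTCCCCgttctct
The runs were between 8 bases (Rpl28 and Rpl38) and 11 bases (Rpl35) long in these 6 genes. Over all 13 matching members they were between 5 bases (Rplp2 and Rps21) and 13 bases (Rpl15) long. CCGGAAG, a core recognised by ETS-family factors, was searched on both strands of the window from 250 bases before to 50 after each start. It stood in 27 of the 75 member windows (36.0%) and in 8.86% of all windows. All windows include those of genes not tested here, and no share is given for tested genes alone.

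Ribosomal protein genes were among the most abundant mRNAs of the cortex. Of the 77 members other than paralogs and copies, 67 averaged at least 10 FPKM over the 12 libraries. The median of these 67 means was 76.3 FPKM, above the mean of 97.0% of the 9846 genes tested, whose median was 4.36 FPKM. The limits differ, as the genes tested needed only 1 FPKM on average in any group, which favours the members in this ranking. The 5 highest members were Rpl4 at 273 FPKM, Rps15 at 269 FPKM, Rps23 at 239 FPKM, Rpsa (which is also known as a laminin receptor precursor) at 237 FPKM and Rps3a1 at 229 FPKM. The median over the members' means was 76.3 FPKM for the small subunit and 54.7 FPKM for the large subunit, counting members listed at 0. The 3 stalk proteins, which recruit the translation factors that split GTP, averaged 93.2 FPKM for Rplp0, 130 FPKM for Rplp1 and 69.2 FPKM for Rplp2. The lower and upper quartiles of the 67 means were 43.0 and 122 FPKM, and the other 10 of the 77 averaged under 10 FPKM. In all, the members took between 3.41% and 6.29% of a library's summed FPKM.

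Paralogs were low next to the genes they resemble, with 1 exception. Rpl22l1, a paralog of the large-subunit gene Rpl22, averaged 15.7 FPKM against 10.6 FPKM for Rpl22 and was the higher of the pair in 11 of 12 libraries. Rpl7l1 averaged 10.1 FPKM against 62.1 FPKM for Rpl7, and Rps27l, known as a target of p53, averaged 6.04 FPKM against 73.5 FPKM for Rps27. Rpl3l, known from striated muscle, and Rpl10l, known from testis, were listed at 0 in all 12 libraries, and Rpl39l, also known from testis, was above 0 in 1 library only, at 0.23 FPKM. Markers of those tissues were near 0 as well: the 5 skeletal muscle markers summed to at most 0.0694 FPKM and the 5 testis markers to 0 in every library. The typed pseudogene Rpl6l averaged 25.04 FPKM, below the 57.2 FPKM of Rpl6 in all 12 libraries.

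Some core members were listed at 0, and near copies of several low members had higher values. Rpl15, Rpl17, Rpl29 and Rps12 were at 0 in all 12 libraries, as was Rps12l1, and Rpl7a averaged 0.0944 FPKM. Near copies were sought as other genes of the tables with a transcript of which at least 50% of the 31-base words also occur in a member. In total 74 of the 88 members had at least 1, and of the 272 distinct copies 262 are annotated as processed pseudogenes. The 12 copies of Rpl29 summed to a mean of 85.6 FPKM, with 40.4 FPKM in Gm13841 alone, and the 7 copies of Rpl17 summed to 88.7 FPKM, with 57.4 FPKM in Rpl17-ps5. The copies of Rpl15 summed to only 6.48 FPKM and those of Rps12 to 2.06 FPKM. The 17 copies of Rpl21 summed to 218 FPKM next to 16.8 FPKM for Rpl21, and the 14 copies of Rps2 to 126 FPKM next to 24.7 FPKM for Rps2. For 15 members the copies together had the higher mean, among them 8 of the 10 core members with a mean under 10 FPKM. How reads were shared between a gene and its copies is not given in the sources used here, so the level of these members is uncertain.

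**Figure D1:**
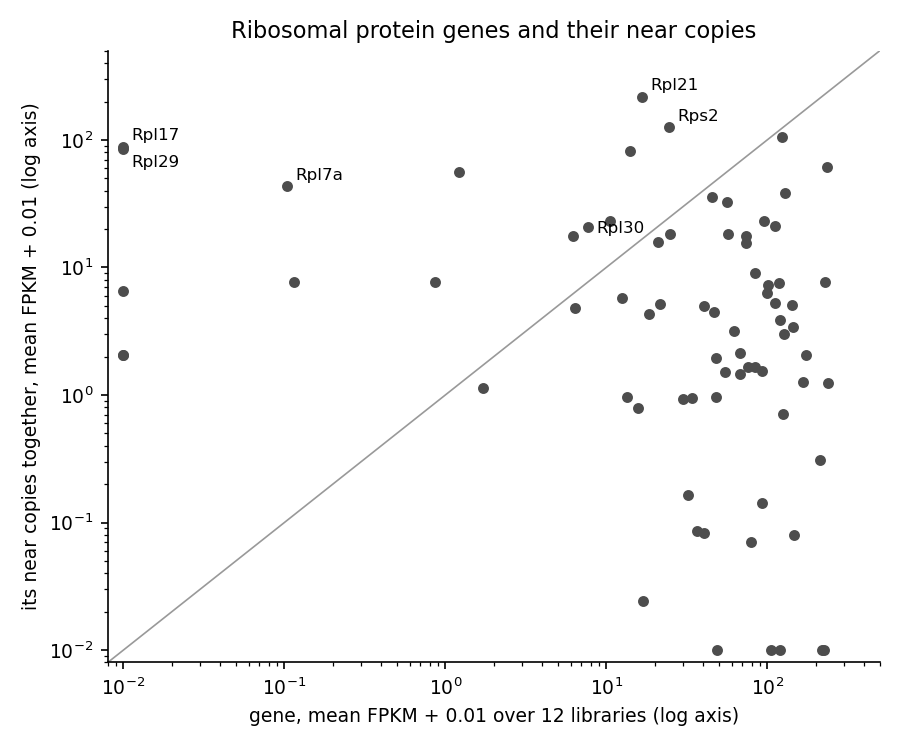
Mean FPKM over the 12 libraries of the 74 ribosomal protein genes with near copies (horizontal) against the summed mean FPKM of the copies (vertical), both on log axes after adding 0.01; the line marks equal values. Rpl17 and Rpl29 stand at 0 on the horizontal axis with copies at 88.7 and 85.6 FPKM, and most other genes lie below the line.

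Other members were listed at 0 in a single library. Rpl8 was listed at 0 in the control 2 library of 3 months, at 11.4 FPKM in TAU58/2 2 of 3 months, and at between 42.1 and 381 FPKM in the other 10 libraries. Rps26 was at 0 in control 3 of 10 months, against a median of 95.9 FPKM over the 12 libraries, and Rpl21 at 0 in TAU58/2 2 of 3 months, against a median of 20.04 FPKM. An exact 0 in a gene that is high in other libraries can be a failed estimate, so these are given as listed at 0 only.

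Most members moved together from library to library, and not by group. For the 70 members that averaged 10 FPKM or more, each library's value was set against the gene's median over the 12 libraries, on the log2(FPKM + 0.1) scale. The median deviation was 0.02, −0.41 and 0.71 in TAU58/2 mice of 10 months, replicates 1 to 3, against 0.33, 0.07 and −0.21 in controls of 10 months. It was 0.04, −0.16 and 0.02 in TAU58/2 mice of 3 months, against 0.03, −0.23 and 0.14 in controls of 3 months. The highest and the lowest of the 12 libraries both belonged to TAU58/2 mice of 10 months. TAU58/2 3 of 10 months was the highest of all libraries for 53 of the 70 members, TAU58/2 2 of 10 months was the lowest for 28, and 65 of the 70 were higher in TAU58/2 3 than in TAU58/2 2 of that age, by a median of 2.19-fold.
The summed FPKM of all 88 members was 6259, 4300 and 9945 in TAU58/2 mice of 10 months, against 7951, 6043 and 5196 in controls of 10 months. At 3 months it was 6616, 5009 and 6314 in TAU58/2 mice, against 6213, 5106 and 6872 in controls. TAU58/2 and control libraries overlapped at both ages. In bulk tissue, fewer cells of a type and less RNA per cell cannot be told apart.

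**Figure D2:**
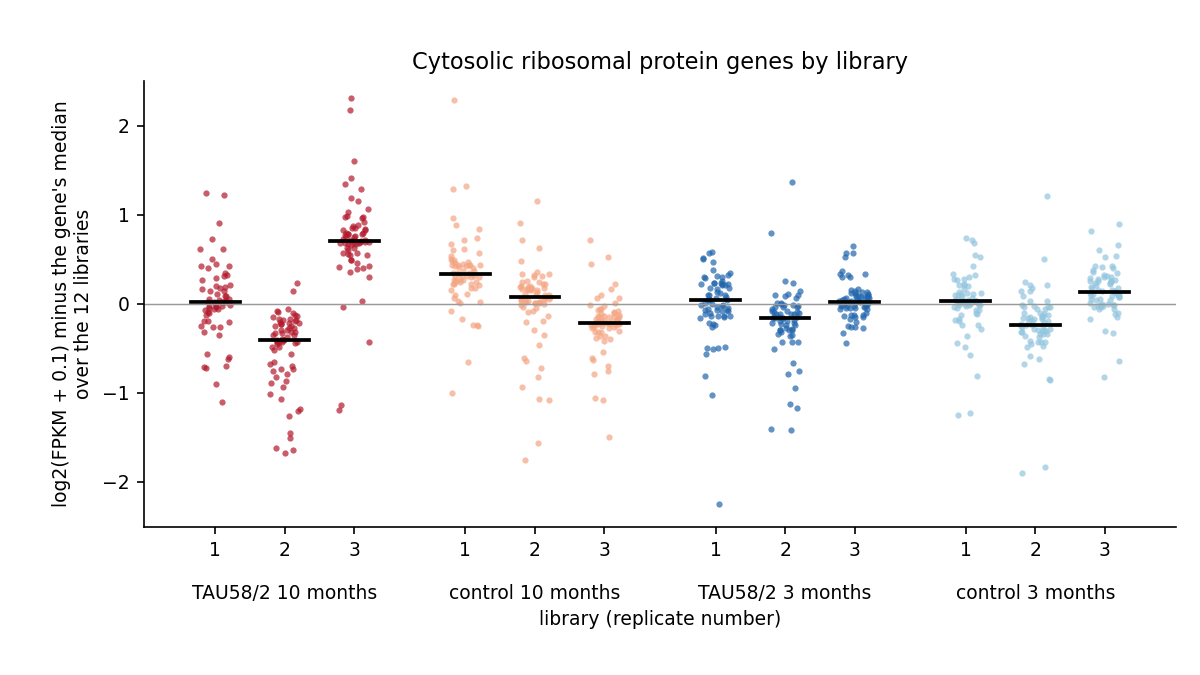
Each point is 1 of the 70 ribosomal protein genes that averaged 10 FPKM or more, as log2(FPKM + 0.1) minus the gene's median over the 12 libraries; black bars are library medians, and 26 of 840 points lie outside the plotted range of −2.5 to 2.5. The library medians run from −0.41 to 0.71, and both ends of that range lie among the TAU58/2 libraries of 10 months.

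Both subunits shared this pattern. In TAU58/2 3 of 10 months the median deviation was 0.68 for the small subunit, 0.72 for the large subunit and 0.79 for the stalk genes, and in TAU58/2 2 of 10 months it was −0.38, −0.42 and −0.45 in the same order of gene groups. Across the 12 libraries, Pearson's r between a member and the mean log2 level of the 70 members was above 0.5 for 55 of them and below 0 for 4. With the members' median deviation in place of the mean level, the median r was 0.76 for the 70 members. It was 0.21 for the 2520 other coding genes averaging 10 FPKM or more, and 0.45 for the 504 of these with the shortest exons. Proteasome subunit genes had 0.66 and nuclear genes of oxidative phosphorylation 0.61, so such likeness was not particular to the members. These correlations are a description over 12 libraries that share depth and scaling between genes, and each member is part of the mean or median. The member closest to the mean level was Rpl36a (r = 0.97), a large-subunit gene on the X chromosome. It had 35.03, 27.2 and 54.1 FPKM in TAU58/2 mice of 10 months, against 46.1, 39.8 and 30.7 FPKM in controls of 10 months. At 3 months it had 33.9, 30.2 and 37.3 FPKM in TAU58/2 mice, against 36.4, 28.1 and 41.9 FPKM in controls, and groups overlapped at both ages. Members with a TOP-like start in GENCODE had a median r with the mean level of 0.82 over 19 genes, and those without had 0.72 over 51 genes. The ranges ran from 0.19 to 0.95 with such a start and from −0.44 to 0.97 without, so they overlapped.

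The 4 members with a negative r with the mean level were Rps20, Rpl19, Rpl7l1 and Rpl21. Rps20, a small-subunit gene (chr4:3831334-3835665, minus strand, GRCm38), had 139, 96.1 and 9.12 FPKM in TAU58/2 mice of 10 months, against 125, 105 and 96.1 FPKM in controls of 10 months. In the 6 libraries of 3 months it ranged from 87.3 to 130 FPKM, so TAU58/2 3 of 10 months, the library in which most members were highest, was the lowest for Rps20. Rpl10, a large-subunit gene, was likewise lowest there, at 18.6 FPKM against 22.9 to 56.05 FPKM in the other 11 libraries. Outside the members, Eef2, the elongation factor that moves the ribosome along the mRNA, was at 125 FPKM in the same library and at 288 to 357 FPKM in the others. Rps20, Rpl10 and Eef2 were named here after their values were seen.

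**Figure D3:**
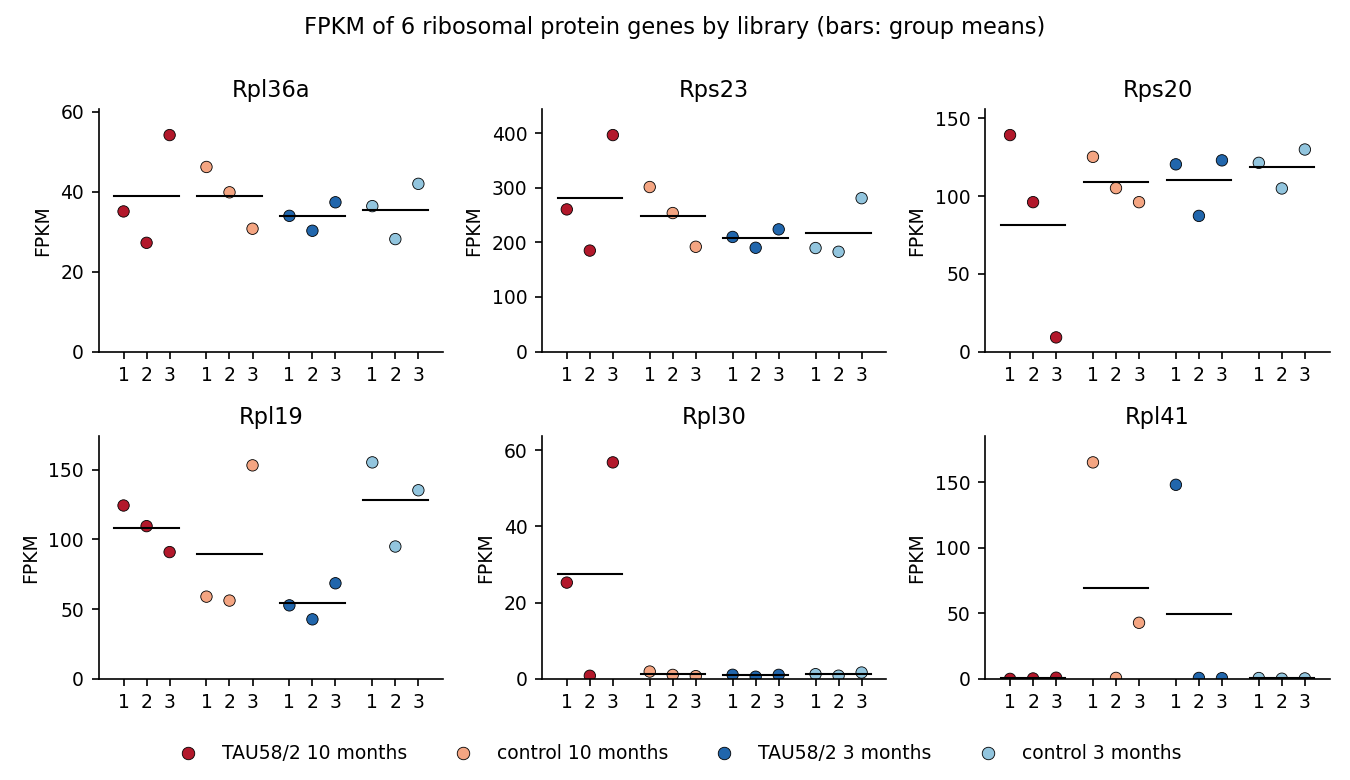
FPKM of 6 ribosomal protein genes in each library (points, coloured by group, numbered by replicate), with bars at the group means. Rpl36a and Rps23 follow the common pattern and Rps20 is at 9.12 FPKM in TAU58/2 3 of 10 months, while Rpl30 and Rpl41 are near 0 in most libraries and high in 2 and 3 of them.

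In the libraries where the members stood highest and lowest, other short and abundant mRNAs moved in the same direction. The 2520 other coding genes averaging 10 FPKM or more were divided into 5 bins by the summed length of their annotated exons, from 374 to 2013 bases in the shortest bin and from 5826 to 17608 bases in the longest. In TAU58/2 3 of 10 months the median deviation was 0.46, 0.32, 0.17, 0.03 and −0.10 from the shortest to the longest bin. In TAU58/2 2 of 10 months the same medians were −0.18, −0.11, −0.04, −0.01 and 0.06. The order by length thus ran in opposite directions in these libraries, and the members' medians (0.71 and −0.41) lay beyond those of the shortest bin. The match was less close elsewhere. In TAU58/2 3 of 3 months the shortest bin was at −0.06 and the members at 0.02. In control 2 of 10 months they were at −0.01 and 0.07, and in the remaining libraries the signs were the same. In TAU58/2 1 of 3 months the shortest bin (0.13) lay above the members (0.04). The members had a median of 1754.5 annotated exon bases, against 3498.5 for the other coding genes, and 40 of the 70 fell within the range of the shortest bin. Proteasome subunit genes and nuclear genes of oxidative phosphorylation both had a median deviation of 0.52 in TAU58/2 3 of 10 months. In TAU58/2 2 of 10 months these medians were −0.09 for the proteasome and −0.25 for oxidative phosphorylation. Mitochondrial ribosomal protein genes, which serve a separate ribosome, had 0.52 and −0.17 in these libraries. RNA quality was not reported per library, and the part of length, RNA quality or depth in the members' pattern was not tested.

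**Figure D4:**
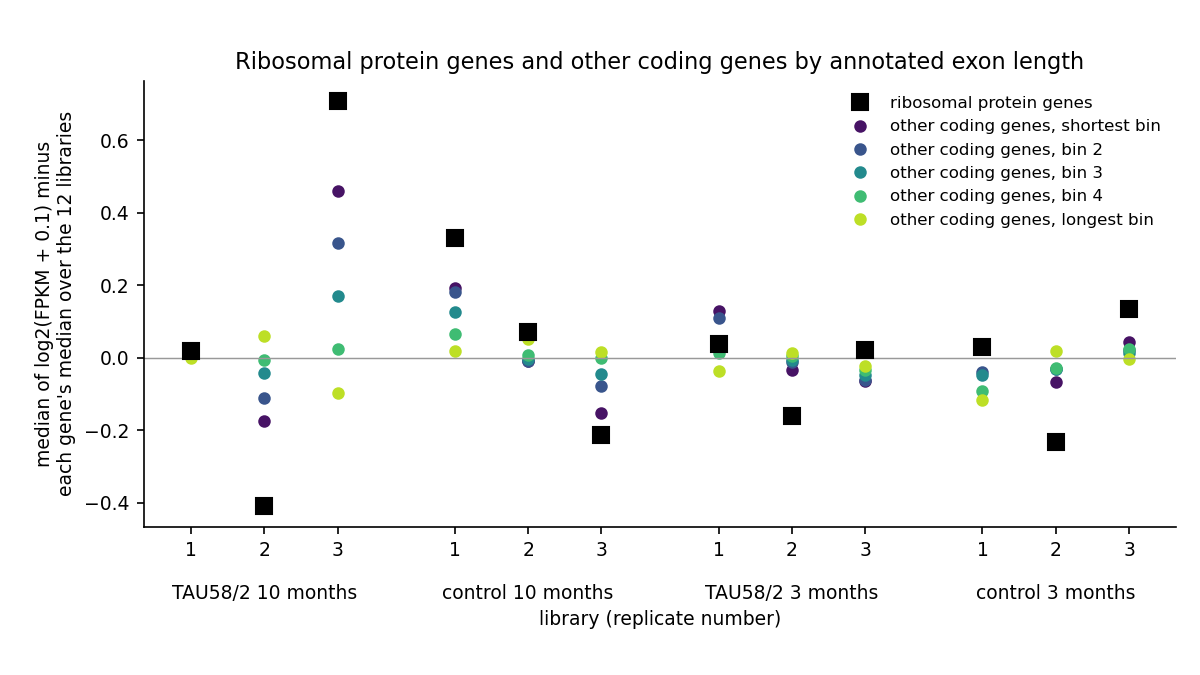
Median, in each library, of log2(FPKM + 0.1) minus each gene's median over the 12 libraries, for the 70 ribosomal protein genes (squares) and for the 5 bins by exon length of 2520 other coding genes (circles). In TAU58/2 3 of 10 months the circles fall in order of length from 0.46 to −0.10 and the square stands at 0.71.

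The libraries also differed in markers of other tissue. Over the 12 libraries the summed FPKM ran from 125933 to 158077, and between 12828 and 13914 genes were above 0. Markers of cortical neurons were present, with 7 of 8 excitatory and 6 of 6 inhibitory markers averaging at least 1 FPKM, but their sums varied widely. Excitatory markers summed to between 521 FPKM (control 3 of 3 months) and 1860 FPKM, inhibitory markers to between 67.6 and 579 FPKM, astrocyte markers to between 76.8 and 157 FPKM, and red cell markers to between 12.7 and 142 FPKM. The 9 pituitary markers summed to 13583 FPKM in TAU58/2 1 of 10 months, with growth hormone (Gh) at 11228 FPKM. In the other 11 libraries they summed to between 55.1 and 127 FPKM, of which Chga alone had 49.1 to 73.8 FPKM. Of the 6 choroid plexus markers only 1 averaged at least 1 FPKM. The 6 together summed to 440 FPKM in TAU58/2 1 of 10 months and to 304 FPKM in TAU58/2 3 of 3 months. They summed to 730 FPKM in control 1 of 3 months, against 5.24 to 63.6 FPKM elsewhere. The members' median deviation in those 3 libraries was 0.02, 0.02 and 0.03. In TAU58/2 1 of 10 months the summed FPKM of all genes was 151637, and 138927 without Gh and prolactin (Prl). The part of this other tissue in the members' values was not tested. Oligodendrocyte markers were highest in TAU58/2 3 of 10 months, at 515 FPKM against 217 to 414 FPKM in the other libraries. Microglia markers (75.8 FPKM against 39.1 to 74.8 FPKM) and endothelial markers (21.1 FPKM against 2.36 to 14.7 FPKM) were highest in the same library. The part of these cell types in the members' pattern was not tested.

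The genes outside the members whose level was most like the members' mean over the 12 libraries were sought among genes averaging 10 FPKM or more. The 5 closest were Eef1g (r = 0.96), a subunit of the elongation factor that delivers aminoacyl-tRNA, Eif3h (r = 0.94), a subunit of an initiation factor, Psmb4 (r = 0.93), a proteasome core subunit, Ap1s1 (r = 0.92), a subunit of a clathrin adaptor, and the processed pseudogene Gm11942 (r = 0.91). Among ribosomal proteins named outside the rule, Fau, which encodes a small-subunit protein fused to a ubiquitin-like one, had r = 0.88, and Rack1, a scaffold on the small subunit, had r = 0.89. Fau had 161, 129 and 277 FPKM in TAU58/2 mice of 10 months, against 193, 164 and 136 FPKM in controls of 10 months. Its highest library was thus again TAU58/2 3 and its lowest TAU58/2 2.

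At 10 months the question was which members differed between TAU58/2 and control cortex, and none passed the test. A member was tested if it averaged at least 1 FPKM in at least 1 group, which held for 78 of the 88; the other 10 have no fold change. With limma over all 9846 tested genes and Benjamini-Hochberg adjustment at 0.05, 0 of the 78 members were called, and 0.0102% of all tested genes (1 gene) were. At an unadjusted p under 0.05 there were 2 members, Rpl30 and Rpl41, or 2.56% of the 78, against 4.40% of all tested genes. The members' median log2 fold change was 0.03, with 43 positive and 35 negative, and the median of all tested genes was 0.01. By class the median was 0.03 for the small subunit (30 tested), −0.01 for the large subunit (39 tested) and 0.15 for the stalk (3 tested). Groups were free of overlap for 0 of the 78 members, against 8.26% of all tested genes (4.37% higher and 3.89% lower in TAU58/2 mice). The smallest adjusted p of a member was 0.969. Among all the marker lists only that of inhibitory neurons was free of overlap between the groups at this age. Its 6 genes summed to 413 to 537 FPKM in TAU58/2 mice, against 92.6 to 392 FPKM in controls. Their part in the members' values was not tested.

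The 2 members under an unadjusted p of 0.05 at 10 months, Rpl30 and Rpl41, were each near 0 in some libraries and high in others. Rpl30, a large-subunit gene (chr15:34440505-34443640, minus strand), had 25.2, 0.82 and 56.8 FPKM in TAU58/2 mice, against 1.92, 1.03 and 0.72 FPKM in controls. It was thus high in 2 TAU58/2 libraries, while the third lay within the controls (log2 fold change 3.15, SE 1.23, unadjusted p = 0.0285, adjusted p = 0.969 with limma). Its 7 copies averaged 20.8 FPKM. Without TAU58/2 2 of 10 months, the library at 0.82 FPKM, Rpl30 passed the threshold, with a log2 fold change of 4.94 (SE 0.56, adjusted p = 0.0238 with limma). Over all alternatives its log2 fold change ran from 1.97 to 4.94, and its adjusted p with limma from 0.0238 to 1.

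Rpl41, which encodes one of the smallest proteins of the large subunit (chr10:128548114-128549305, minus strand), had 0, 0.30 and 0.89 FPKM in TAU58/2 mice of 10 months, against 165, 0.74 and 42.7 FPKM in controls. One control library thus lay within the TAU58/2 range (log2 fold change −5.73, SE 2.30, unadjusted p = 0.0321, adjusted p = 0.969 with limma). The other members singled out by p were Rpl37a (log2 fold change 0.51, SE 0.31) and Rps27a (2.12, SE 1.32), which were higher in TAU58/2 mice on average, and Rps3a3 (−3.55, SE 1.61), Rps4x (−1.08, SE 0.53) and Rpl10 (−0.63, SE 0.40), which were lower on average; none passed the test.

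Genes of this family that are used as references in quantitative PCR had small differences next to their errors at 10 months. Rplp0 averaged 115 ± 31.3 FPKM in TAU58/2 mice and 99.2 ± 34.0 FPKM in controls (SD, n = 3 each). Rpl13a averaged 100.2 ± 62.9 FPKM in TAU58/2 mice and 88.3 ± 26.8 FPKM in controls, and Rpl32 averaged 131 ± 50.6 FPKM in TAU58/2 mice and 123 ± 22.7 FPKM in controls (SD, n = 3 each). Rps18 averaged 55.2 ± 25.5 FPKM in TAU58/2 mice and 51.9 ± 14.3 FPKM in controls (SD, n = 3 each). Their log2 fold changes were 0.24 (SE 0.44) for Rplp0, 0.05 (SE 0.38) for Rpl13a, 0.04 (SE 0.28) for Rpl32 and 0.03 (SE 0.31) for Rps18. Rpl4 was at −0.45 (SE 0.42) and Rpsa at −0.21 (SE 0.47). Rpl5 and Rpl11, which with Rpl23 bind the p53 inhibitor Mdm2, were at −0.10 (SE 0.28) and −0.05 (SE 0.39), and Rpl23 was at −0.05 (SE 0.53).

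**Figure D5:**
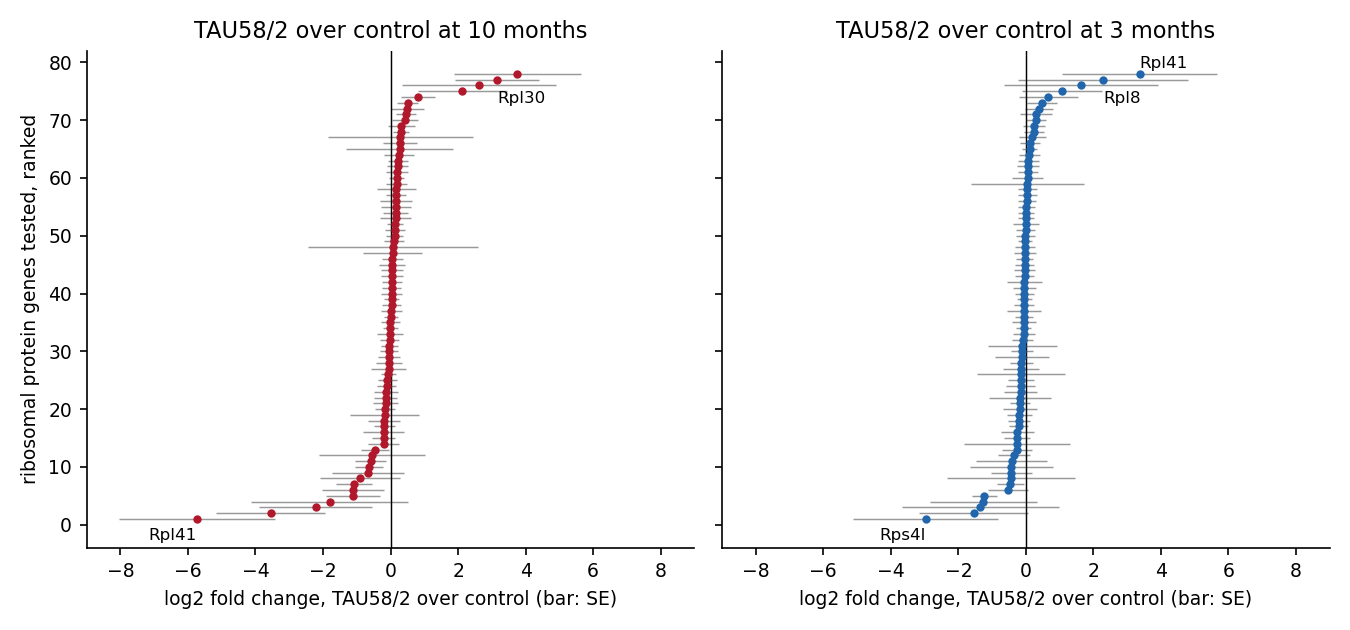
Log2 fold change of TAU58/2 over control for the 78 tested ribosomal protein genes, ranked from lowest to highest at 10 months (left) and at 3 months (right), with bars of 1 standard error. Most points lie near 0 with medians of 0.03 and −0.05, and the ends of the ranking have wide errors.

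At 3 months again no member passed the test. Of the 78 members 0 were called with limma at an adjusted p of 0.05, against 0.0406% of all tested genes (4 genes). At an unadjusted p under 0.05 there was 1 member, Rpl19, or 1.28% of the 78, against 3.39% of all tested genes. The median log2 fold change was −0.05, with 26 positive and 52 negative, and the median of all tested genes was 0.02. It was −0.04 for the small subunit, −0.05 for the large subunit and −0.16 for the stalk. The groups did not overlap for 5 members, or 6.41%, against 7.98% of all tested genes. Of these 5, Rps26 was higher in TAU58/2 mice, as were 4.44% of all tested genes, and Rpl19, Rps6, Rpl7 and Rps4l were lower, as were 3.54%. Among all the marker lists only that of red cells was free of overlap between the groups at this age. Its 5 genes summed to 35.4 to 142 FPKM in TAU58/2 mice, against 14.9 to 25.1 FPKM in controls. Their part in the members' values was not tested.

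Rpl19, a large-subunit gene (chr11:98026710-98030492, plus strand), had 52.7, 42.7 and 68.6 FPKM in TAU58/2 mice of 3 months, against 155, 94.9 and 135 FPKM in controls of 3 months. Every TAU58/2 library was thus below every control (log2 fold change −1.23, SE 0.38, unadjusted p = 0.0085, adjusted p = 1 with limma). At 10 months the direction was the other way on average and groups overlapped: 124, 110 and 90.9 FPKM in TAU58/2 mice, against 59.0, 56.1 and 153 FPKM in controls (log2 fold change 0.43, SE 0.38, adjusted p = 0.969 with limma). Rpl19 is one of the 4 members that did not follow the common pattern by library (r = −0.12), and its 2 copies averaged 22.9 FPKM. Rps6, the small-subunit protein phosphorylated downstream of mTOR, had 75.5, 68.3 and 76.0 FPKM in TAU58/2 mice of 3 months, against 77.0, 99.1 and 132 FPKM in controls. The gap between the groups was small next to the range of the controls (log2 fold change −0.46, SE 0.40). Rps4l had 0, 1.02 and 0 FPKM in TAU58/2 mice of 3 months, against 1.65, 2.56 and 1.04 FPKM in controls, a difference set in part by the pseudocount of 0.1.

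The remaining members with the smallest p at 3 months overlapped between groups. They were Rpl41 (log2 fold change 3.37, SE 2.30), Rpl7l1 (0.48, SE 0.46), Rps28 (0.29, SE 0.29) and Rpl4 (0.38, SE 0.42), higher on average in TAU58/2 mice, and Rps3a3 (−1.54, SE 1.61), lower on average. For Rpl41 the mean rested on 148 FPKM in TAU58/2 1 of 3 months, as the other 2 TAU58/2 libraries had 0.70 and 0.54 FPKM and the controls 0.63, 0.12 and 0.33 FPKM. Rps26, with the groups apart, had 136, 114 and 121 FPKM in TAU58/2 mice, against 9.32, 68.6 and 98.6 FPKM in controls (log2 fold change 1.62, SE 2.28). For Rpl4 the sign turned without control 1 of 3 months, the library with 124 FPKM against 247 and 347 FPKM in the other controls.

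Where values listed at 0 were set to missing, the 3 members concerned lost 1 library each in the fit. Rpl8 at 3 months then had a log2 fold change of −1.26 (SE 1.29), against 2.29 (SE 2.51) with the 0 kept. Rpl21 at 3 months had 1.27 (SE 1.89), against −1.35 (SE 2.32), and Rps26 at 10 months had −0.76 (SE 0.93), against 2.61 (SE 2.28). The direction of these 3 fold changes was thus fixed by the value listed at 0. At 3 months Rps26, whose 0 lies in a library of 10 months, kept its log2 fold change of 1.62. Its SE there was 0.83 with the 0 set to missing, against 2.28 with the 0 kept, and it was not called.

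The difference of the genotype effects between the ages was not called for any of the 78 members with limma, against 0.0508% of all tested genes (5 genes). At an unadjusted p under 0.05 there were 2 members, or 2.56%, against 3.32% of all tested genes. These were Rpl19, with a difference of 1.66 (SE 0.53, unadjusted p = 0.011, adjusted p = 0.987 with limma), and Rpl41, with −9.10 (SE 3.25, unadjusted p = 0.019, adjusted p = 0.987 with limma). The members' median difference was 0.06, and that of all tested genes −0.02.

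Each age is held in a table of its own, so age and table cannot be told apart. Between 10 and 3 months in TAU58/2 mice 0 of 78 members were called with limma, against 0.0203% of all tested genes, and 2 were at an unadjusted p under 0.05, or 2.56%, against 4.31%. Their median log2 fold change of 10 over 3 months was 0.16, with 59 positive and 19 negative, and that of all tested genes 0.05. Groups did not overlap for Rpl19 and Rps6, both higher at 10 months, and Rpl7l1, lower at 10 months, which is 3.85% of the 78 against 9.43% of all tested genes (5.78% higher and 3.65% lower). Without TAU58/2 2 of 10 months, Rpl30 was called here too, with a log2 fold change of 5.30 (adjusted p = 0.0108 with limma), against 3.51 (SE 1.23) with all libraries. In controls 0 of 78 were called, against 0.0305% of all tested genes, and Rpl41 alone was at an unadjusted p under 0.05, 1.28% against 4.19%. The median in controls was 0.09, with 48 positive and 30 negative, and that of all tested genes 0.06. Groups did not overlap for Rpl22 and Rpl41, both higher at 10 months, or 2.56% against 10.1% of all tested genes (6.80% higher and 3.25% lower). The 2 age effects have no sample in common, but each shares its libraries with a genotype effect above.

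The members' medians turned with single libraries. Without TAU58/2 3 of 10 months, the 10-month genotype median was −0.26, and without TAU58/2 2 of 10 months it was 0.28. Without TAU58/2 1 of 10 months, the library with the pituitary markers, it was 0.11, and without control 3 of 10 months it was −0.15. At 3 months it was 0.04 without TAU58/2 2, 0.02 without control 3 and −0.17 without control 2.

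Other genes of the pathway were read by the same fit. The 6 lists held 31 tested initiation factor genes, 10 elongation factor genes and 24 genes with TOP transcripts that are not members. They also held 36 genes of ribosome biogenesis, 15 genes of mTOR and TOP regulation and 9 genes of chaperones at the ribosome and other factors. Of all these, 0 were called in either direction at 10 months or at 3 months. The TOP list includes the noncoding Gas5 and Snhg transcripts. The last list includes Nemf, Ltn1, Zfp598 and Asrgl1, which are not chaperones. Of the 24 genes with TOP transcripts 13 are also on another of these lists, so the 6 lists hold 112 distinct tested genes. At 10 months the median log2 fold changes were 0.04 for initiation, 0.03 for elongation and 0.07 for the TOP list. They were 0.10 for biogenesis, −0.33 for the regulators and −0.16 for the last list. At 3 months they were 0.01, 0.01, 0.02, −0.01, −0.06 and −0.05 in the same order of lists. At 10 months 4 of the 112 were at an unadjusted p under 0.05, or 3.57%, against 4.40% of all tested genes, with a smallest adjusted p of 0.969 with limma. They were Eif4a2 (log2 fold change −0.63, SE 0.22), a helicase of initiation, Rheb (−0.55, SE 0.21), the GTPase that activates mTOR, and Wdr43 (0.76, SE 0.25) and Heatr1, both of ribosome biogenesis. Heatr1 was listed at 0 in 10 of the 12 libraries, with 2.02 and 3.51 FPKM in 2 controls of 10 months, so no fold change is given for it. At 3 months 2 of the 112 were, or 1.79%, against 3.39% of all tested genes: Eif1 (−0.77, SE 0.33), which takes part in start codon choice, and Nmd3 (1.34, SE 0.57), which exports the large subunit from the nucleus.

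In the authors' deposited table for 10 months, 79 members had a p-value, of which 0 were under 0.05, against 4.14% of the 19247 genes with a p-value in the authors' deposited table. The smallest q-value of a member in the authors' deposited table for 10 months was 0.854, and 0.00520% of all its genes had one under 0.05. In the authors' deposited table for 3 months, 4 of 81 members (4.94%) had a p-value under 0.05, against 3.22% of 19196 genes. The smallest q-value of a member in the authors' deposited table for 3 months was 0.247, and 0.0156% of all its genes had one under 0.05.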

How the data were processed

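Cortex RNA of 12 mice was sequenced by the authors after depletion of ribosomal RNA. The deposited tables, 1 per age, hold 48526 genes with FPKM per library; HISAT2 2.0.4 and StringTie 1.3.0 are named in the submitters' processing notes, with builds mm10 and GRCm38. Per the file headers, the deposited tables also hold the authors' fold change as a ratio, its log2 value, and p-values and q-values, used only where named. No counts are given, so the depth is unknown and no counting interval can be set. How the authors scaled the 2 tables is not given in the sources used here.

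Differences were tested with limma 3.58.1 in R 4.3.3 on log2(FPKM + 0.1), which understates changes of low genes, over all 12 libraries with 1 mean per group and 8 residual degrees of freedom, for the 9846 genes averaging 1 FPKM or more in any group, with Benjamini-Hochberg adjustment at 0.05. The procedure was tested on simulated data. Genes were named by the smallest p, 4 in each direction per genotype comparison, and 1 of these genes is not reported here. Mice are separate biological replicates per the labels.

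Members and lists were chosen with earlier results of these data known. The 10 FPKM limit, the length bins, the search for copies and its 50% limit, the likeness comparison, the motifs, the class given to Rpl6l, Rps3a2, Rps3a3 and Rps12l1, and the genes drawn by library were set after values were seen. Alternatives were another pseudocount, other filters, size factors, values listed at 0 set to missing, a replicate block, each age alone, and leaving out each library. Start sequences are RefSeq's, from GRCm38.p6, and transcripts and exon lengths are GENCODE's. Sequences of Rpl17 and Rps14 are not shown. Summaries used Python 3.11.15 with pandas 2.3.3 and NumPy 2.4.6.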

Additional observations from a re-analysis of the deposited data

How the results depend on the processing

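Of 539 values recomputed under the alternatives, 535 stayed on their side of the threshold or within the spread between replicates, and the 4 exceptions came from leaving out 1 library. For the medians that spread was 0.33 (log2), wider than the largest move of a median (0.29), so it could not show a change: 11 of 92 recomputed medians had the other sign, all of them without 1 library. Beside these 539, setting values listed at 0 to missing turned the sign for Rpl8 (−1.26) and Rpl21 (1.27) at 3 months and for Rps26 (−0.76) at 10 months. Leaving out each library in turn, the number of ribosomal protein genes called ran from 0 to 1 for the genotype effect at 10 months and from 0 to 1 for the age effect in TAU58/2 mice. The 1 gene was Rpl30 both times, without TAU58/2 2 of 10 months, with log2 fold changes of 4.94 and 5.30 (adjusted p = 0.0238 and 0.0108 with limma). Rpl4 at 3 months ran from −0.03 to 0.71 and was negative, at −0.029, without control 1 of 3 months. The median log2 fold change ran from −0.26 to 0.28 at 10 months, from −0.17 to 0.04 at 3 months, from −0.20 to 0.33 for the difference between the ages, from −0.13 to 0.39 for age in TAU58/2 mice and from −0.04 to 0.27 for age in controls. With size factors the medians were 0.02 at 10 months and −0.06 at 3 months. The log2 ratio of the summed FPKM ran from −0.28 to 0.34 at 10 months and from −0.13 to 0.09 at 3 months. With the replicate number as a block, 0 ribosomal protein genes were called and the medians were 0.03 at 10 months and −0.05 at 3 months. Deviations of libraries with the same number had correlations between −0.12 and 0.09 over 18 pairs. Those with different numbers had correlations between −0.13 and 0.15 over 36 pairs. With 3 libraries per group this cannot show whether the numbers pair the mice, and the labels do not say so. Over all genes 4 were called at 3 months, against 14 with each age fitted alone, and at 10 months 1 against 0. The cause of these differences was not tested beyond the fewer samples in a fit. Depth is unknown, and members near 0 have the widest errors.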

Other observations

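Ribosomal proteins outside the naming rule held further values that stood apart in single libraries. Rpl36al, a paralog of Rpl36a, was at 32.5 FPKM in TAU58/2 3 of 3 months, against at most 2.37 FPKM in the other 11 libraries. Rps27rt, a copy of Rps27, was at 55.3 FPKM in control 3 of 3 months. These genes were named after their values were seen, and 0 of the 5 tested genes of this list were called in any comparison with limma at an adjusted p of 0.05. Mdm2, the p53 inhibitor that Rpl5, Rpl11 and Rpl23 bind, had a log2 fold change of −1.08 (SE 0.47, unadjusted p = 0.0436 with limma) at 10 months and was not called.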
